A study of Mus musculus with 2 samples.

Results

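The phagocyte NADPH oxidase was represented by 5 genes, Cybb, Cyba, Ncf1, Ncf4 and Rac2, each taken from the expression matrix by its exact symbol, out of 31053 genes measured. They were followed in droplet-based single-cell RNA sequencing of CD45+ cells, that is cells carrying the pan-leukocyte antigen, sorted from B16F10 melanomas, a transplantable mouse skin tumour line. The tumours had grown for 2 weeks in mice that lack c-Rel, an NF-kB family protein, in myeloid cells (LysM-cre x RelloxP/loxP) and in wild-type mice (LysM-cre x Rel+/+), so both groups carried the Cre driver, which acts mainly in neutrophils, monocytes and macrophages. Each genotype gave 1 library from 5 pooled tumours, and the matrix numbers the libraries 1 and 2 without saying which genotype each number is. The libraries are therefore given side by side by number, no effect of the genotype is read from them, and no test across samples was possible. Cells of a library share their source and are not replicates, so every interval below is a 95% interval that covers counting error only.

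The oxidase is the enzyme with which phagocytes turn oxygen into superoxide, the first step of the respiratory burst used to kill microbes. Its membrane core is a heterodimer of the catalytic subunit NOX2, encoded by Cybb, and a smaller partner encoded by Cyba that stabilises it. At rest the organizer subunit encoded by Ncf1 and the adaptor encoded by Ncf4 lie in the cytosol, and they move to the membrane on activation together with a small GTPase, Rac2 in neutrophils and Rac1 in many other cells. Loss of the core or of the organizer causes chronic granulomatous disease in people, and in tumours oxidants made by myeloid cells are known to restrain T cells. B cells and plasmacytoid dendritic cells are known to carry the enzyme as well.

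On the GRCm38/mm10 assembly with GENCODE M21 annotation, Cybb spans chrX:9435252-9487771 on the minus strand with 13 exons in its principal transcript. Cyba lies on the minus strand at chr8:122424776-122432930 with 6 exons, and Ncf1 on the minus strand at chr5:134220053-134229625 with 11 exons. Ncf4, with 10 exons on the plus strand at chr15:78244801-78262580, and Rac2, with 7 exons on the minus strand at chr15:78559167-78572783, lie on the same chromosome. Ncf1 overlaps Gtf2ird2 on the opposite strand, which had 4 UMIs (unique molecular identifiers, 1 for each RNA molecule captured) in monocyte-like barcodes of library 1 and 2 in library 2, and Cyba overlaps Gm20388, which had 0 UMIs in both.

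The proximal promoters of the core pair and of the organizer are shown because these genes took different class patterns in the data below. Each is the 250 bases before the RefSeq transcription start on GRCm38.p6, read 5′ to 3′ on the minus strand, at chrX:9469325-9469574 for Cybb, chr8:122432941-122433190 for Cyba and chr5:134229626-134229875 for Ncf1. The Cybb start used here lies inside the longer gene span of the GENCODE annotation. Capitals mark the matches to CCAAT or GGGCGG on either strand.
Cybb: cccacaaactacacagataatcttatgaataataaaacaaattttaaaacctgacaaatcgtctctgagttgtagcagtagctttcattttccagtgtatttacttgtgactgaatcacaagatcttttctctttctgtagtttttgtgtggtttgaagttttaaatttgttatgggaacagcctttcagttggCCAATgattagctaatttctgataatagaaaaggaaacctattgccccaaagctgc
Cyba: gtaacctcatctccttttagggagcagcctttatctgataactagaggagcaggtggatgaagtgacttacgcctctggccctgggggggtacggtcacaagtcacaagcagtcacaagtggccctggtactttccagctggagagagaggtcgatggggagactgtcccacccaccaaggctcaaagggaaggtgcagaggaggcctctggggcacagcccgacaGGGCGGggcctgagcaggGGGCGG
Ncf1: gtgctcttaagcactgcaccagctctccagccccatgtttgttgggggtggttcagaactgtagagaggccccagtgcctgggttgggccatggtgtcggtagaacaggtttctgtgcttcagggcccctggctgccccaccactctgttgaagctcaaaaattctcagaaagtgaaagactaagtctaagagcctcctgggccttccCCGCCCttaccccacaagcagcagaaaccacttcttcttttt
The Cybb window held 1 CpG dinucleotide, a GC content of 34% and a CCAAT match starting 56 bases before the start. The Cyba window held 6 CpG, a GC content of 60% and GGGCGG at 24 and at 6 bases before the start. The Ncf1 window held 2 CpG, a GC content of 54.4% and GGGCGG on the other strand, read here as its complement, 42 bases before the start. Of 32851 promoters of the same length, 33.8% held CCAAT and 32.7% held GGGCGG, and the median held 6 CpG, so none of these matches is rare. GAGGAA, also searched on both strands, was in none of the 3 windows and in 23.3% of all promoters. The matches are descriptions of the letters and were not tied to any measurement of binding.

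Library 1 held 7688 barcodes with 49129318 UMIs and library 2 held 10564 barcodes with 73507228 UMIs, of which 7189 and 9528 passed the filters on depth, genes and mitochondrial RNA. Marker UMIs put 6646 and 8808 of these into classes, and melanoma-like barcodes were the largest class, with 4102 in library 1 and 6767 in library 2, although the sort was for CD45+ cells. The numbers of barcodes in library 1 and library 2 were 127 and 59 neutrophil-like, 536 and 721 macrophage-like, 63 and 37 plasmacytoid dendritic-like, 43 and 41 conventional dendritic-like, 136 and 9 B-like, 299 and 80 NK-like, 714 and 391 T-like and 626 and 703 monocyte-like. Median depth ran between 604 UMIs in B-like barcodes of library 1 and 10160 in melanoma-like barcodes of library 2. The libraries shared 3609 barcode sequences, and barcodes with over 10 times more UMIs in the other library made up 45.6% and 21.3% of melanoma-like barcodes but at most 1.25% of any immune class. Free RNA was present in the droplets, since melanoma marker RNA in the immune classes lay between 2.31% and 3.78% of its melanoma-like level in library 1 and between 3.15% and 9.22% in library 2. The genes that led the neutrophil-like class by fold included Ngp, Camp and Ltf, which encode granule proteins of neutrophil precursors. Ly6g, Retnlg, S100a8, S100a9, Stfa1 and Stfa2 were among the same leading genes. The neutrophil markers Csf3r, Cxcr2 and Mmp9 were also higher in this class than in any other, in both libraries. The maturity of the neutrophil-like barcodes was not tested.

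The catalytic subunit gene Cybb was carried by monocyte-like and macrophage-like barcodes, which held 40.2% and 39.4% of its UMIs in library 1 and 31.4% and 39.3% in library 2. Per 1000000 UMIs of the class (CPM) its level was 227 in neutrophil-like barcodes of library 1 (22 UMIs, interval 143 to 344) and 423 in library 2 (20 UMIs, interval 258 to 654). Macrophage-like barcodes were at 678 (643 to 714) and 393 CPM (366 to 423) in libraries 1 and 2. Plasmacytoid dendritic-like barcodes reached 1325 (1111 to 1568) and 951 CPM (688 to 1281), against 1158 (1099 to 1220) and 762 CPM (702 to 826) in monocyte-like barcodes. These last classes were the highest in both libraries, and their intervals overlapped in each. Conventional dendritic-like barcodes had 262 (179 to 369) and 128 CPM (68.0 to 218).

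Among lymphoid-like barcodes Cybb separated B-like barcodes from the rest. B-like barcodes had 201 CPM in library 1 (23 UMIs, interval 128 to 302) and 499 CPM in library 2, where 9 barcodes gave 6 UMIs (interval 183 to 1085). T-like barcodes had 16.2 (10.1 to 24.5) and 14.9 CPM (6.81 to 28.3), and NK-like barcodes had 0 UMIs in both libraries, which allows up to 11.0 and 45.2 CPM. Lyz2, a lysozyme gene that is abundant in phagocytes, was at 0 UMIs in B-like barcodes of both libraries, against 6160 and 4116 CPM in monocyte-like barcodes. Csf1r was also at 0 UMIs there, while Cd14 and Cd68 were each at 17.5 and 0 CPM and Fcgr3 at 17.5 and 83.1 CPM. Barcodes that carried both B and phagocyte marker lists were left out of the classes. Low phagocyte markers in B-like barcodes thus follow in part from the classing. In plasmacytoid dendritic-like barcodes Lyz2 was at 304 and 199 CPM and the macrophage colony-stimulating factor receptor gene Csf1r was at 0 UMIs. Of the other shared phagocyte markers, Cd14 was at 58.9 and 44.2 CPM and Fcgr3 at 29.4 and 22.1 CPM in plasmacytoid dendritic-like barcodes, against 821 and 892 CPM and 487 and 480 CPM in monocyte-like barcodes. Cd68 was closer, at 294 and 155 CPM, against 538 and 523 CPM in monocyte-like barcodes. The monocyte marker list was less clear-cut, with Ly6c2 at 1678 and 1194 CPM and Plac8 at 2424 and 2035 CPM in plasmacytoid dendritic-like barcodes, while Vcan was at 29.4 and 0 CPM, against 415 and 401 CPM in monocyte-like barcodes.

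Cyba, the partner of the catalytic subunit, was broader. Its neutrophil-like level was 1717 (1465 to 1998) CPM in library 1 and 1270 (969 to 1634) CPM in library 2. Macrophage-like barcodes were at 2235 and 1883 CPM, against 2107 and 1903 CPM in monocyte-like barcodes, and these were the highest classes in both libraries. Lymphoid-like barcodes carried it as well, with 508 and 332 CPM in B-like, 1019 and 814 CPM in NK-like and 878 and 999 CPM in T-like barcodes. Melanoma-like barcodes had 125 (121 to 128) and 127 CPM (124 to 130), and because they are many and deep they held 33.1% of all Cyba UMIs in library 1 and 54.7% in library 2.

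**Figure D1:**
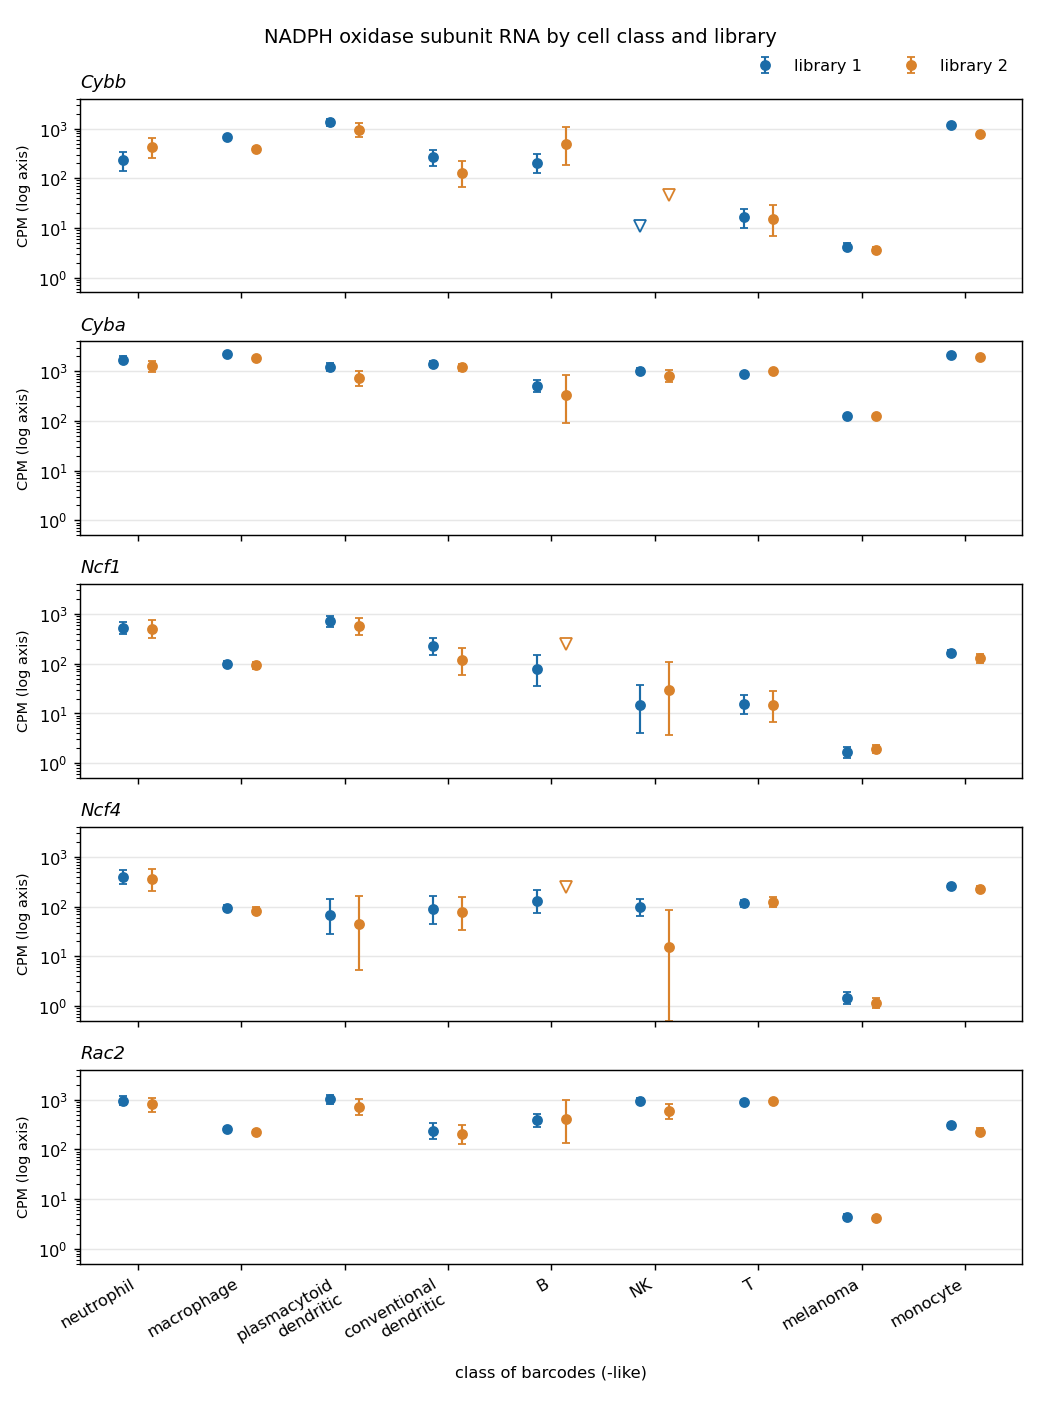
Level of each oxidase gene in CPM, on a logarithmic axis, by class (along the horizontal axis, monocyte-like last) in library 1 and library 2; points are summed UMIs per class, bars are 95% counting intervals drawn down to 0.5 CPM at the lowest, and open triangles mark classes with 0 UMIs at the level that 3 UMIs would give. Cybb reaches 1325 CPM in plasmacytoid dendritic-like barcodes and has 0 UMIs in NK-like barcodes. Rac2 and Cyba lie between 588 and 1019 CPM in T-like and NK-like barcodes and lower in B-like barcodes.

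The organizer and adaptor genes of the cytosolic complex parted from each other. Ncf1, the organizer, was at 527 (393 to 693) and 508 CPM (325 to 756) in neutrophil-like barcodes and at 716 (561 to 901) and 575 CPM (376 to 843) in plasmacytoid dendritic-like barcodes, against 169 (147 to 193) and 129 CPM (105 to 157) in monocyte-like barcodes. Neutrophil-like and plasmacytoid dendritic-like barcodes stood above every other class in both libraries without overlap of intervals. Macrophage-like barcodes were at 100.1 and 93.1 CPM, and T-like barcodes at 15.5 and 14.9 CPM.

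Ncf4, the adaptor that binds a membrane phosphoinositide, was at 403 (287 to 551) and 360 CPM (210 to 576) in neutrophil-like barcodes, against 257 (230 to 287) and 228 CPM (196 to 264) in monocyte-like barcodes. The intervals of these classes touched in library 1 and overlapped in library 2. The macrophage-like level was 92.4 and 82.6 CPM, and the plasmacytoid dendritic-like level 68.7 and 44.2 CPM on 7 and 2 UMIs, so the class with the most Ncf1 was among the lowest for Ncf4. T-like barcodes had 116 and 126 CPM, more than macrophage-like barcodes of library 2 without overlap of intervals.

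Rac2, the haematopoietic Rac GTPase that also steers the actin cytoskeleton, was in the range of neutrophil-like barcodes in T-like and NK-like barcodes. Its levels in T-like and NK-like barcodes were above those in monocyte-like and macrophage-like barcodes. Rac2 stood at 962 (776 to 1178) and 804 CPM (569 to 1104) in neutrophil-like, 1021 and 730 CPM in plasmacytoid dendritic-like, 964 and 588 CPM in NK-like and 922 and 959 CPM in T-like barcodes. In both libraries the intervals of neighbours in the order of these 4 classes overlapped. In library 2, however, the NK-like interval (418 to 804) lay below the T-like one (883 to 1041). Macrophage-like barcodes had 257 and 222 CPM, against 304 and 228 CPM in monocyte-like barcodes, and conventional dendritic-like barcodes had 237 and 206 CPM. B-like barcodes were below T-like barcodes, at 394 (288 to 528) and 415 CPM (135 to 970), with overlap of intervals in library 2. T-like barcodes held 38.7% of all Rac2 UMIs in library 1 and 31.3% in library 2. The label of the group as phagocyte genes was thus met in part. Cybb and Ncf1 were low in T-like and NK-like barcodes but highest in plasmacytoid dendritic-like barcodes, and Cybb was in B-like barcodes as well, while Rac2 and Cyba had T-like and NK-like levels between 588 and 1019 CPM.

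Barcodes differ in depth, so the share of barcodes with at least 1 UMI was compared after each barcode had been thinned at random to 500 UMIs. Melanoma-like barcodes, which should lack the leukocyte genes, gave the background. A Cybb UMI was seen in 3.94% and 10.2% of neutrophil-like, 27.8% and 19.3% of macrophage-like, 42.9% and 43.2% of plasmacytoid dendritic-like and 10.3% and 22.2% of B-like barcodes, against 44.6% and 26.6% of monocyte-like barcodes in libraries 1 and 2. In T-like barcodes the share was 0.420% (0.0867% to 1.22%) in library 1, and the melanoma-like share of 0.390% (0.223% to 0.633%) lay within that interval, so no difference from the background was detectable in the share, which rests on 3 of 714 barcodes. The T-like level of 16.2 and 14.9 CPM was above the level of all melanoma-like barcodes, 4.19 (3.59 to 4.86) and 3.61 CPM (3.17 to 4.10), without overlap of intervals. However, the 2051 shallower melanoma-like barcodes of library 1 had 19.1 CPM on 32 UMIs, so the T-like level was not above theirs. The 3384 shallower ones of library 2 had 5.30 CPM on 77 UMIs. Median depth before thinning was 1122 UMIs in T-like and 4236 UMIs in melanoma-like barcodes of library 1. Each share comes from 1 random draw per barcode, and the average over all possible draws lay within its interval for 89 of 90 shares, the exception being Rac2 in T-like barcodes of library 2, at 38.6% on average. For Cybb the averages were 45.4% and 36.9% in plasmacytoid dendritic-like and 0.742% and 0.385% in T-like barcodes, against 41.6% and 29.7% in monocyte-like barcodes. Without thinning 77.8% of monocyte-like barcodes of library 1 and 49.1% of library 2 had a Cybb UMI.

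The T-like share of Ncf1, 0.840% (0.309% to 1.82%) in library 1, also overlapped the melanoma-like share of 0.268% (0.134% to 0.479%). Its T-like level, 15.5 (9.57 to 23.6) and 14.9 CPM (6.81 to 28.3), was above that of all melanoma-like barcodes, 1.66 (1.29 to 2.10) and 1.94 CPM (1.62 to 2.31). The shallower melanoma-like barcodes had 7.16 CPM of Ncf1 on 12 UMIs in library 1 and 1.38 CPM on 20 UMIs in library 2. In shares Ncf4 was apart from the background, seen in 5.32% (3.79% to 7.23%) and 3.58% (1.97% to 5.93%) of T-like barcodes, against 0.0975% and 0.133% of melanoma-like barcodes. Rac2 was seen in 34.7% and 33% of T-like barcodes, against 0.293% and 0.236% of melanoma-like barcodes, which is far above the background. Ncf1 was seen more often in neutrophil-like barcodes, in 19.7% (13.2% to 27.7%) and 25.4% (14.98% to 38.4%), against 8.63% (6.55% to 11.1%) and 6.97% (5.20% to 9.11%) of monocyte-like barcodes. Rac2 was seen in 33.9% of neutrophil-like barcodes of both libraries, against 14.2% and 9.25% of monocyte-like barcodes. For Ncf4 the intervals overlapped, with 18.1% (11.8% to 25.9%) and 20.3% (11.0% to 32.8%) of neutrophil-like, against 13.3% (10.7% to 16.2%) and 10.5% (8.36% to 13.03%) of monocyte-like barcodes.

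**Figure D2:**
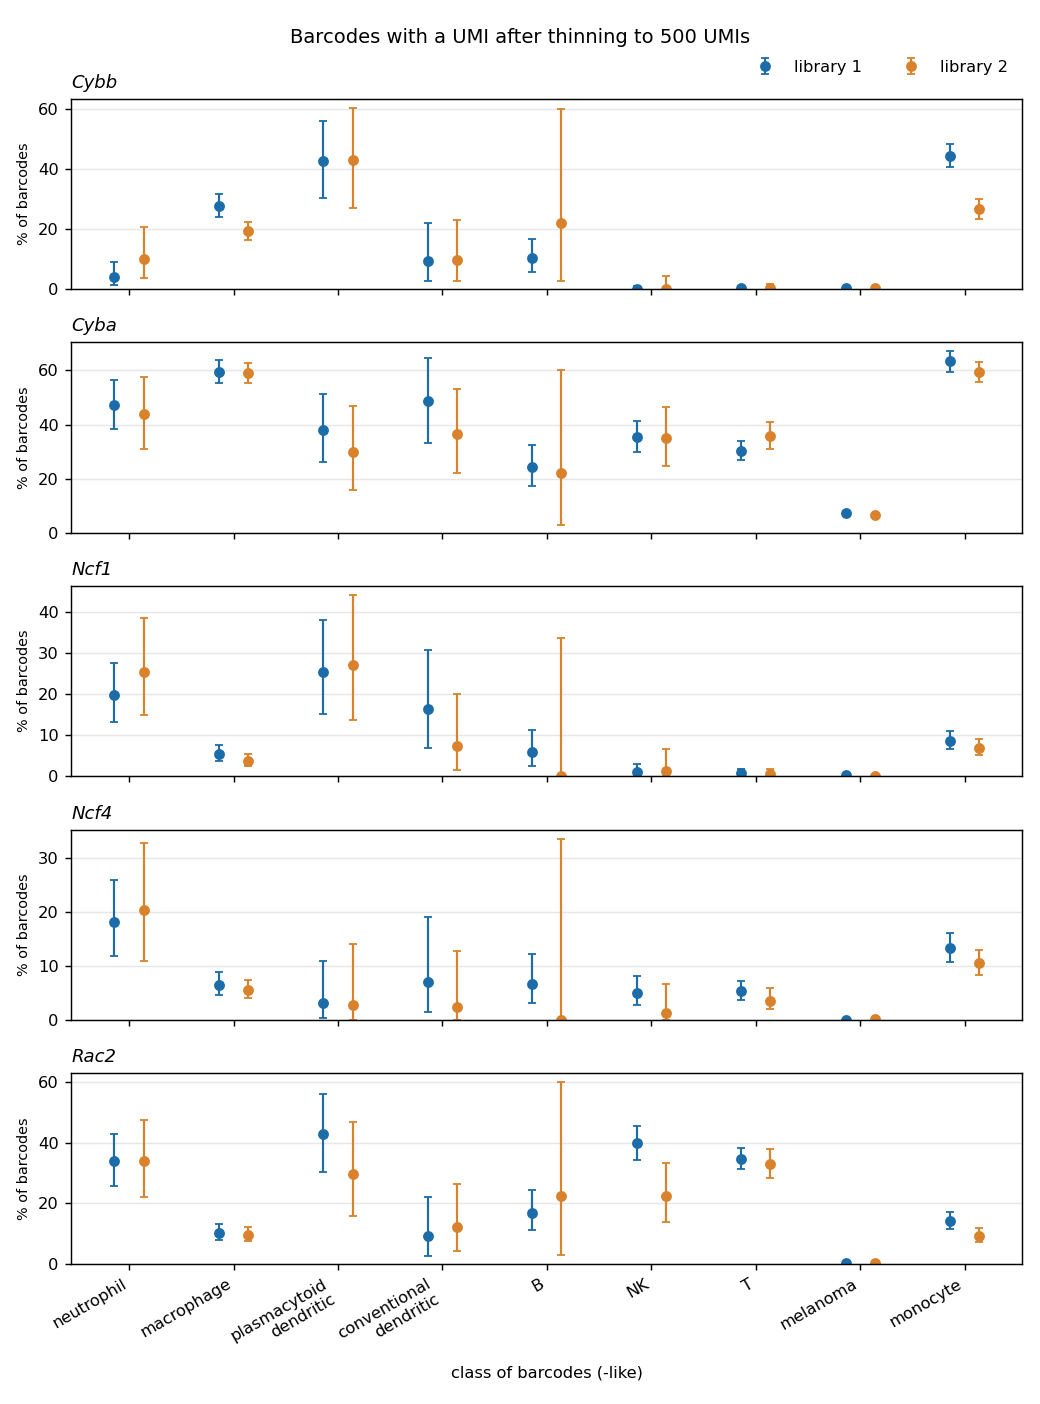
Percent of barcodes with at least 1 UMI of each oxidase gene after thinning to 500 UMIs, by class in library 1 and library 2; bars are exact 95% binomial intervals. Cybb lies at 3.94% and 10.2% in neutrophil-like barcodes, below macrophage-like and monocyte-like barcodes, though the interval overlaps the macrophage-like one in library 2. Ncf1 is at 19.7% and 25.4% in neutrophil-like barcodes.

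Class pairs were compared within each library, and a gene was called when its level differed at least 2-fold in the same direction in libraries 1 and 2. A gene was tested where each library had 50 or more UMIs of it over the pair. In neutrophil-like over monocyte-like barcodes, Ncf1 was 3.12 (2.25 to 4.26) and 3.94 times higher (2.41 to 6.20), and Rac2 was 3.16 (2.49 to 3.98) and 3.52 times higher (2.41 to 5.02). Of the 5 genes these were the 2 called higher, where 4.24% of 2195 tested genes were called higher and 25.1% lower, or 12.7% lower with a neutrophil-like count under 3 UMIs taken as 3. Ncf4 had ratios of 1.57 and 1.57 and Cyba of 0.815 and 0.667, under the limit for a call. The Cybb ratio was 0.196 (0.123 to 0.299) in library 1 and 0.555 (0.337 to 0.866) in library 2, below 1 in both but past 2-fold in library 1 alone, and so it was not called. Neutrophil-like barcodes were shallow, with medians of 613 and 630 UMIs, against 1824 and 1035 UMIs in monocyte-like barcodes. The barcode filter kept 127 of 135 neutrophil-like barcodes in library 1 but 59 of 126 in library 2, and 703 of 718 monocyte-like barcodes there. In library 2 Cybb was at 58.7 CPM in the 31 shallower neutrophil-like barcodes (1 UMI) and at 629 CPM in the 28 deeper ones (19 UMIs). In library 1 these levels were 84.6 and 310 CPM, and the part of depth in the ratios was not tested. The Cybb ratio passed the limit in both libraries with no filter on barcodes, with Leiden clusters and by the mean over barcodes. Called lower over all genes under these settings were 725, 924 and 691, against 550 at the main settings.

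The neutrophil-like Cybb level rested on few barcodes. In library 1, 9 of 127 barcodes held its 22 UMIs and 1 of these held 13, and without that barcode the level was 99.7 CPM and the ratio over monocyte-like barcodes 0.0861. In library 2, 10 of 59 barcodes held 20 UMIs with at most 4 in any, and without the top barcode the level was 344 CPM and the ratio 0.452. Neutrophil-like barcodes with a Cybb UMI were deeper than those without, with medians of 897 against 610 UMIs in library 1 and 1224.5 against 591 in library 2. The monocyte marker list was at a median of 123 against 33.6 per 10000 UMIs in library 1 and 67.4 against 39.4 in library 2. That list is not specific here, since its genes Hp, at 2151 and 1904 CPM in neutrophil-like against 602 and 430 CPM in monocyte-like barcodes, and Ifitm6 were higher in neutrophil-like barcodes. The neutrophil marker list went opposite ways, at a median of 2898 against 1836 per 10000 UMIs in library 1 and 595 against 1633 in library 2. The part of either list in the Cybb level was not tested.

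Macrophage-like barcodes differed from monocyte-like barcodes in Ncf4, which was lower by a factor of 2.78 (2.32 to 3.35) and 2.77 (2.22 to 3.45). It was 1 of 5 genes called, where 7.89% of 5377 tested genes were called higher and 4.58% lower. Cybb came close with ratios of 0.585 (0.543 to 0.631) and 0.516 (0.463 to 0.576). Ncf1 had ratios of 0.593 and 0.722, Rac2 of 0.846 and 0.972, and Cyba of 1.06 and 0.990.

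Of the barcodes parted by their monocyte and macrophage markers, 47 and 35 macrophage-like and 49 and 42 monocyte-like barcodes lay within 2-fold of the dividing line. They were also cut into 5 bins by the macrophage share of the monocyte and macrophage marker UMIs. The first and last bins held 340 and 342 barcodes in library 1 and 408 and 507 in library 2. The middle bin held fewer, 156 and 145, and whether the classes form a continuous range was not tested. Along the bins Cybb stood at 1277, 1059, 781, 776 and 652 CPM in library 1 and at 836, 699, 584, 382 and 382 CPM in library 2. Ncf4 went with it, at 284, 211, 197, 140 and 79.0 CPM in library 1 and 236, 209, 198, 66.7 and 84.3 CPM in library 2. Cyba stayed between 2048 and 2303 CPM in library 1 and between 1714 and 1938 CPM in library 2, and Rac2 between 243 and 336 CPM and between 189 and 236 CPM. The intervals of the first and last bins of Rac2 were apart in library 1 (292 to 385 and 235 to 287) and overlapped in library 2. Ncf1 was uneven, at 189, 128, 177, 100.7 and 94.96 CPM in library 1 and 112, 166, 116, 118 and 83.5 CPM in library 2, and the intervals of its first and last bins were apart in library 1 (156 to 226 and 80.0 to 112) and overlapped in library 2. Cybb and Ncf4 were thus lower in the last bin than in the first in both libraries, Ncf1 and Rac2 clearly so in library 1 alone, and Cyba in neither. Median depth moved the other way along the bins, with 1768 UMIs in the first and 3912.5 in the last bin of library 1 and 1006 and 2411 in library 2, and its part in these levels was not tested.

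**Figure D3:**
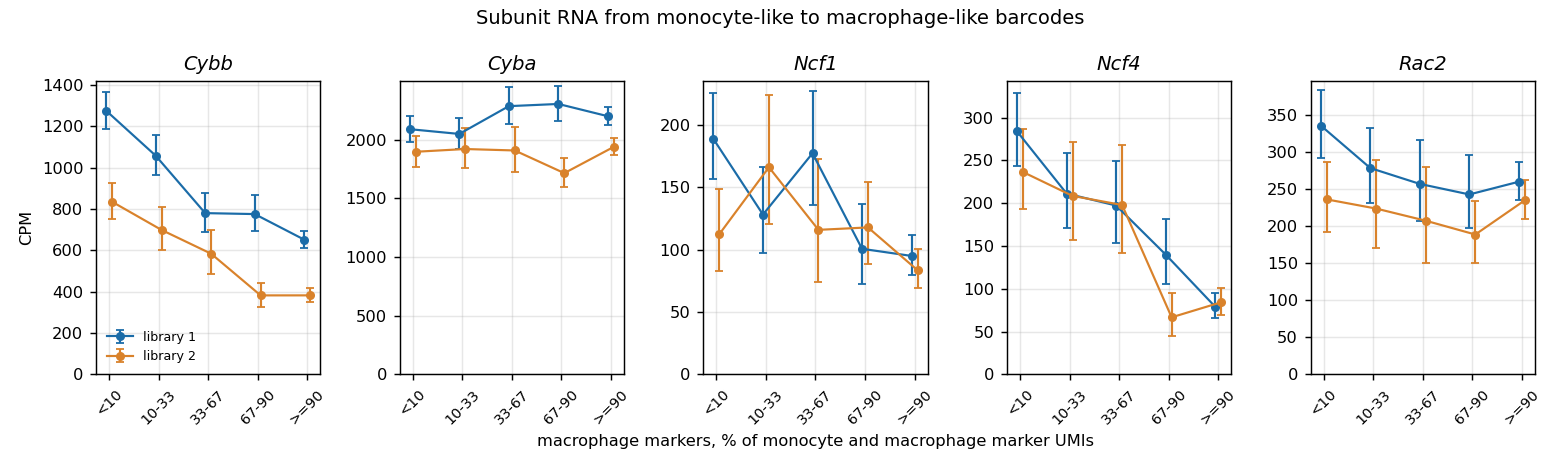
Level of each oxidase gene in CPM across 5 bins of the macrophage share of monocyte and macrophage marker UMIs, from 0 to 10% at the left to 90 to 100% at the right, in library 1 and library 2 with 95% counting intervals. Cybb declines to 652 and 382 CPM in the last bin and Ncf4 to 79.0 and 84.3 CPM, while Cyba remains near its first value.

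In dendritic-like barcodes, which join the plasmacytoid and conventional classes, Ncf1 was 2.67 (2.08 to 3.40) and 2.00 times (1.34 to 2.94) its monocyte-like level and was called higher. Conventional dendritic-like barcodes alone, in a comparison added later, had 229 and 118 CPM of Ncf1. That was 1.36 (0.880 to 2.02) and 0.914 times (0.457 to 1.67) its monocyte-like level, and Ncf1 was not called there. Ncf4 was called lower by a factor of 3.20 (1.99 to 5.48) and 3.36 (1.78 to 7.13). The Ncf1 call was lost with no filter on barcodes, with at least 1000 UMIs per barcode, with Leiden clusters in place of marker classes and with melanoma RNA subtracted, and the Ncf4 call with Leiden clusters. These were 2 of 5 genes, where 3.47% of 2451 tested genes were called higher and 13% lower. The other ratios were 0.643 and 0.500 for Cybb, 0.633 and 0.554 for Cyba and 1.95 and 1.61 for Rac2.

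The dendritic-like classes were unlike each other, in a comparison added after these levels had been seen. In plasmacytoid over conventional dendritic-like barcodes Cybb was 5.06 (3.42 to 7.69) and 7.45 times higher (3.93 to 15.1), and Rac2 was 4.30 (2.83 to 6.74) and 3.54 times higher (1.99 to 6.44). Both were called among 3 oxidase genes with enough UMIs, where 6.67% of 360 tested genes were called higher and 11.4% lower. Ncf1, with ratios of 3.13 and 4.88, had under 50 UMIs over the pair in library 2. Against monocyte-like barcodes, conventional dendritic-like barcodes were lower in Cybb by a factor of 4.42 and 5.97 and in Ncf4 by 2.86 and 2.91, where 3.02% of 2318 tested genes were called higher and 12.7% lower.

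Lymphoid-like barcodes, which join the T-like, NK-like and B-like classes, differed from monocyte-like barcodes in both directions. Rac2 was 2.94 (2.62 to 3.30) and 4.0 times (3.38 to 4.75) its monocyte-like level and was called higher. Cybb was lower by a factor of 44.9 (33.4 to 61.9) and 34.7 (20.9 to 62.4), Ncf1 by 8.66 and 8.0 and Ncf4 by 2.24 and 2.03. Thus 1 of 5 genes was called higher and 3 lower, where 10.6% of 3641 tested genes were called higher and 16.9% lower. Cyba had ratios of 0.416 and 0.509 and was not called. The Ncf4 call was lost with at least 1000 UMIs per barcode, with mixed barcodes kept and with Leiden clusters.

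Within the lymphoid-like barcodes, B-like barcodes over the sum of T-like and NK-like barcodes gave Cybb ratios of 14.9 (7.96 to 28.1) and 37.2 (10.9 to 117), but on 45 and 15 UMIs over the pair, under the minimum for a call. Rac2 was called lower by a factor of 2.36 (1.75 to 3.24) and 2.22 (0.947 to 6.86), a call that was lost by the mean over barcodes. It was 1 of 3 oxidase genes tested, where 17.6% of 1803 tested genes were called lower, or 2.33% with a B-like count under 3 UMIs taken as 3, and 0.776% higher, and the 9 B-like barcodes of library 2 leave its ratio there open to either direction. In NK-like over T-like barcodes, a comparison added later, none of 3 tested oxidase genes was called, where 1.92% of 1775 tested genes were called higher and 6.37% lower, or 5.92% lower with an NK-like count under 3 UMIs taken as 3.

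In melanoma-like over monocyte-like barcodes all 5 genes were called lower, where 12.8% of 11265 tested genes were called lower and 36.4% higher, or 26.3% higher with a monocyte-like count under 3 UMIs taken as 3. The factors were 276 and 211 for Cybb, 176 and 196 for Ncf4, 102 and 66.4 for Ncf1 and 69.0 and 55.6 for Rac2. Cyba was lower by 16.9 and 14.96, the smallest factor of the 5. As a percent of the monocyte-like level, Cyba stood at 5.93% and 6.68% in melanoma-like barcodes, whereas the pan-leukocyte gene Ptprc stood at 0.726% and 0.785%, Lyz2 at 0.270% and 0.367% and Cybb at 0.362% and 0.474%. The endosomal marker gene Cd68 stood at 1.71% and 2.41%, so the Cyba percent was above that of each of these leukocyte genes. Without the barcodes that were over 10 times deeper in the other library, the melanoma-like levels were 123 and 127 CPM for Cyba and 3.80 and 3.51 CPM for Cybb, and all 5 genes were still called lower. Whether the Cyba RNA was made in the melanoma-like cells was not tested.

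Subunits seen in the same barcode were counted after thinning to 500 UMIs. At least 2 of the 5 genes were seen in 37.0% and 37.3% of neutrophil-like, 28.5% and 21.2% of macrophage-like, 44.4% and 37.8% of plasmacytoid dendritic-like and 0.122% and 0.0887% of melanoma-like barcodes, against 43.5% and 29.2% of monocyte-like barcodes. All 5 were seen in 2 of 626 monocyte-like barcodes of library 1. Both parts of the membrane core, Cybb and Cyba, were seen in 1.57% and 3.39% of neutrophil-like and 17.2% and 10.4% of macrophage-like barcodes, against 26.4% and 17.1% of monocyte-like barcodes. For the cytosolic parts neutrophil-like barcodes came first instead of last, with Ncf1 or Ncf4 in 36.2% and 44.1% of neutrophil-like and 11.4% and 9.15% of macrophage-like barcodes, against 20.8% and 16.9% of monocyte-like barcodes. Thinning lowers such shares and free RNA and undetected doublets raise them, so they describe barcodes at this depth and not what a cell carries.

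**Figure D4:**
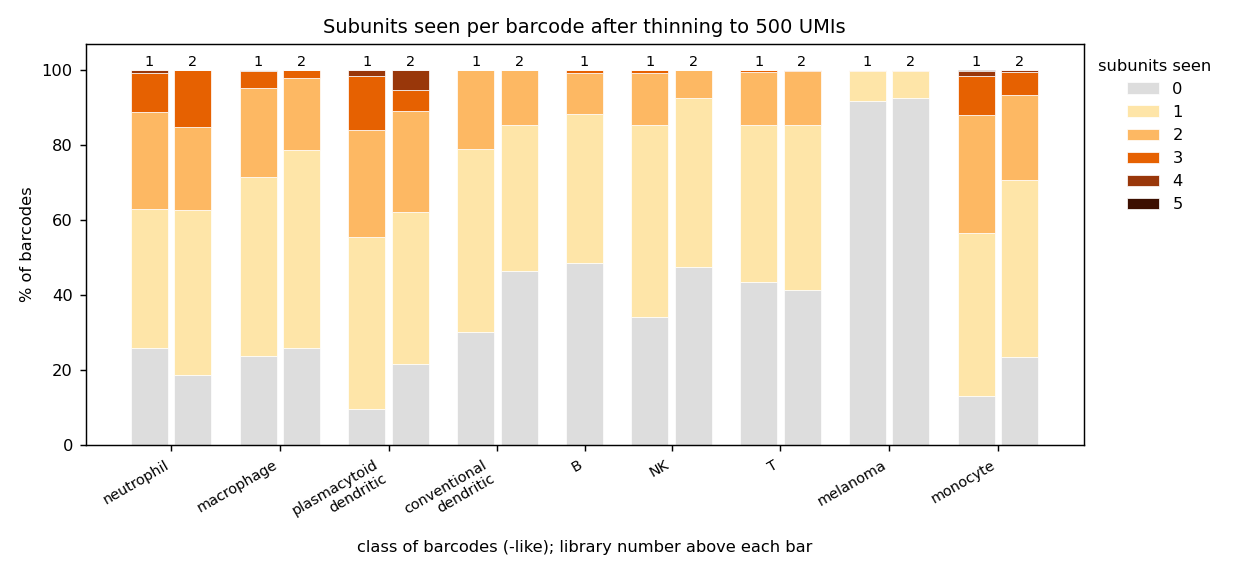
Percent of barcodes with 0 to 5 of the oxidase genes seen after thinning to 500 UMIs, stacked by class, with library 1 and library 2 side by side; B-like barcodes of library 2 are left out because there are 9. At least 2 genes are seen in 37.0% and 37.3% of neutrophil-like barcodes and in 0.122% and 0.0887% of melanoma-like barcodes.

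Between the libraries, none of the oxidase genes differed 2-fold in any of the 6 classes neutrophil-like, macrophage-like, dendritic-like, lymphoid-like, melanoma-like and monocyte-like. The share of all tested genes at least 2-fold higher in library 1 was 9.09% in neutrophil-like, 1.88% in macrophage-like, 5.36% in dendritic-like, 3.73% in lymphoid-like, 0.518% in melanoma-like and 2.5% in monocyte-like barcodes. The share at least 2-fold lower was 15.8%, 1.24%, 1.82%, 0.931%, 1.57% and 1.22% in the same classes. Cybb came closest, with library 1 over library 2 at 1.72 (1.58 to 1.89) in macrophage-like, 1.96 (1.44 to 2.70) in dendritic-like and 1.52 (1.38 to 1.67) in monocyte-like barcodes, whereas the ratio in neutrophil-like barcodes was 0.538 (0.280 to 1.04). The dendritic-like class had 63 plasmacytoid and 43 conventional barcodes in library 1 and 37 and 41 in library 2, and Cybb had ratios of 1.39 (0.982 to 2.01) within plasmacytoid and 2.05 (1.05 to 4.26) within conventional dendritic-like barcodes. At a limit of 1.5-fold, 22.2% of tested genes were higher and 27% lower in library 1 in neutrophil-like barcodes, 6.8% and 6.73% in macrophage-like, 18.9% and 6.41% in dendritic-like, and 11.5% and 6.43% in monocyte-like barcodes. Genes were tested here with at least 50 UMIs over both libraries, and Cybb in neutrophil-like barcodes, with 22 and 20 UMIs, was under that minimum. Depth differed between the libraries in the same classes, with medians of 3230.5 and 2305 UMIs in macrophage-like and 1824 and 1035 UMIs in monocyte-like barcodes. Genotype and library cannot be told apart here, and neither library number is tied to a genotype.

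The other genes of the pathway were taken from lists of oxidase regulators, other NOX and DUOX enzymes, oxidant handling, NADPH supply, the oxidant-responsive factor Nrf2 and transcription factors. Their counts stand beside the share of all tested genes called in the same comparisons, which was 4.24% higher and 25.1% lower in neutrophil-like, 7.89% and 4.58% in macrophage-like, 3.47% and 13% in dendritic-like, 10.6% and 16.9% in lymphoid-like and 36.4% and 12.8% in melanoma-like barcodes. The lists hold so few tested genes that 1 called gene lies near these shares. Of the oxidase regulators tested, 0 of 4 were called in neutrophil-like, 1 of 9 in macrophage-like, 0 of 4 in dendritic-like and 1 of 6 in lymphoid-like barcodes, each against monocyte-like barcodes. The gene called in lymphoid-like barcodes was Prkcd, which encodes a protein kinase C, lower by a factor of 6.20 and 2.91. The gene called in macrophage-like barcodes was Hvcn1, a voltage-gated proton channel that balances the charge of the burst, higher by 7.15 and 11.3 times on 5 and 2 monocyte-like UMIs. None of the 9 other NOX and DUOX genes had enough UMIs to be tested in an immune class, and Noxo1, the 1 tested in melanoma-like barcodes, was at 1.32 and 1.73 CPM there, against 0 UMIs in monocyte-like barcodes, which allows up to 2.43 and 3.83 CPM and so gives no fold. In melanoma-like barcodes 5 of 8 regulators were called lower, Dock2, an activator of Rac in leukocytes, by as much as 94.9 and 95.1, and Hvcn1 was 6.75 and 10.3 times higher.

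Genes that handle oxidants divided by class. In neutrophil-like barcodes, of 11 tested, Gsr, which encodes glutathione reductase, was 2.37 and 2.14 times its monocyte-like level and was the one called higher, while Prdx1 and Prdx2, which encode peroxiredoxins, were called lower. In macrophage-like barcodes, of 12 tested, Prdx1 was 2.60 and 2.71 times higher, and Gsr was lower by a factor of 7.28 and 6.97, together with Prdx5 and Prdx6. In dendritic-like and in lymphoid-like barcodes 0 of 11 were called higher and 5 lower, Gsr in both, by 5.06 and 2.78 in dendritic-like and by 12.1 and 12.9 in lymphoid-like barcodes. For comparison, the median log2 ratio of the list was -0.43 in dendritic-like and -0.71 in lymphoid-like barcodes, against -0.05 and 0.10 over all genes tested there. For the 5 oxidase genes it was -0.75 and -1.12 in the same comparisons, 0.68 in neutrophil-like and -0.61 in macrophage-like barcodes, against -0.69 and 0.12 over all genes tested in neutrophil-like and in macrophage-like barcodes. Genes that supply NADPH were called in 0 of 3 tested in neutrophil-like, 0 of 5 in macrophage-like, 1 of 3 in dendritic-like and 2 of 3 in lymphoid-like barcodes, all lower, and they were Pgd in both of these and Taldo1 in lymphoid-like barcodes, enzymes of the pentose phosphate pathway, where 13% and 16.9% of all tested genes were called lower. Of Nrf2 targets, 1 of 2 was called higher in neutrophil-like barcodes, 1 higher and 1 lower of 4 in macrophage-like barcodes, and 2 of 2 lower in dendritic-like and in lymphoid-like barcodes, against the same shares over all genes. Of transcription factors, 1 of 4 was called lower in neutrophil-like barcodes, close to the 25.1% of all tested genes, 2 of 4 in macrophage-like and 3 of 4 in lymphoid-like barcodes, and 1 higher and 1 lower of 4 in dendritic-like barcodes. The haem oxygenase gene Hmox1, a target of Nrf2, was 2.30 and 3.68 times higher in macrophage-like barcodes. The cystine transporter gene Slc7a11 was 7.28 and 3.72 times higher in neutrophil-like barcodes. Among the transcription factors, Irf8, a factor of dendritic cell development, was 8.36 and 7.45 times higher in dendritic-like barcodes. In neutrophil-like barcodes Irf8 was lower by 9.86 and 8.81, but on 3 and 1 neutrophil-like UMIs, so the size of these factors is uncertain. Spi1, the myeloid factor PU.1, was lower by 36.5 and 33.9 in lymphoid-like barcodes.

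Across the 9 finest classes in both libraries, that is 18 points that share libraries and depth, the pattern most like that of each gene was found by Pearson's r of log2(CPM + 10) among 4950 genes. Cybb was most like Ctsh, a cathepsin gene (r = 0.94), Pld4 (0.88) and Trim25 (0.87). Ncf1 was most like Evi2a (0.93), Ptpn6 (0.92) and Plaur (0.91), and Ncf4 most like Vsir (0.92), AB124611 (0.90) and Adgre5 (0.89). Cyba and Rac2 were most like genes that all leukocytes use, Cyba like Nckap1l (0.94), Lcp1 (0.93) and Itgb2 (0.91), and Rac2 like Ptprc (0.95), Coro1a (0.93) and Stk17b (0.91). Between the subunits themselves r ran between 0.28 for Cybb with Rac2 and 0.81 for Cyba with Ncf4.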

How the data were processed

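The libraries were made from CD45+ cells of pooled tumours and aimed at 10000 reads per cell, per the labels' protocols. The deposited matrix holds raw UMI counts per gene and barcode, written by matrix software version 3.0.2 per the file headers, with Cell Ranger and mm10 listed in the submitters' processing notes. The filter asked for 500 or more UMIs, 200 or more genes and no more than 10% mitochondrial UMIs, which 16717 of 18252 barcodes met. Comparisons leave out 35 symbols that the matrix repeats.

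Each barcode was classed by UMIs of marker lists, with at least 2 marker UMIs and a minimum per 10000 UMIs, chosen after seeing the data, of 30 for melanoma, 200 for neutrophils, 20 for macrophages, 10 for the markers shared by phagocytes, 4 for conventional and 10 for plasmacytoid dendritic cells and 15 for T, NK and B cells. Monocytes and macrophages were parted by the larger of their marker sums. Barcodes with markers of 2 lineages (118 and 168 in libraries 1 and 2) were left out as possible doublets, and no doublet caller was run; 402 and 529 barcodes had no class, and 23 in each library were even. The classes are rebuilt from markers and carry names only as a likeness.

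Levels are summed UMIs of a gene over all UMIs of the class, per 1000000, with exact Poisson intervals. They are not per length, so levels of different genes were not set against each other. Ratios have exact conditional binomial intervals and shares Clopper-Pearson intervals, all at 95%. A class with 0 UMIs was given the level that 3 counts allow. UMIs per barcode limit the precision of shares, so each barcode was thinned to 500 UMIs with a fixed seed. No p-value was computed, since each genotype has 1 sample. Scripts were tested on simulated data. The named genes were the 5 oxidase genes, called genes of the pathway lists with the largest or smallest ratio, with further called genes of these lists chosen after their values were seen, and the 3 genes most like each oxidase gene in pattern, among genes with at least 50 CPM in a class of both libraries. The 5 genes, the lists and the marker genes were chosen with earlier results of these data known. 1 gene of the regulator list is not reported here. Alternatives changed the barcode filter, the classing (Leiden clusters at resolution 1), copied barcodes, mixed barcodes, the mean over barcodes, free RNA, minimum UMIs, fold and thinning depth. Python 3.11.15, numpy 2.4.6, scipy 1.17.1, pandas 2.3.3, scanpy 1.11.5, igraph 0.11.9 and matplotlib 3.10.9 were used.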

Additional observations from a re-analysis of the deposited data

How the results depend on the processing

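No paired analysis was possible because each genotype has 1 library and no result comes from a test. Of the log2 ratios of the oxidase genes under the alternatives, 255 kept their direction and their side of the 2-fold limit, 16 passed it, 9 lost it and 0 changed direction past it. Of their levels 377 stayed within the counting interval and 43 moved beyond it, and of their thinned shares, which also vary with the random draw, 344 and 76. Called lower in neutrophil-like over monocyte-like barcodes was 0 genes, and 1, Cybb, with no filter on barcodes, with Leiden clusters, with the mean over barcodes and at 1.5-fold. Over all genes the count lower there was 550, of 2195 tested, and became 725, 924, 691 and 905 under these settings. Called higher in dendritic-like barcodes was 1, Ncf1, which became 0 with no filter, with at least 1000 UMIs, with Leiden clusters and with melanoma RNA subtracted, and 2, with Rac2, by the mean over barcodes and at 1.5-fold. Over all genes the count higher there was 85, of 2451 tested, and was 85, 53, 136, 94, 108 and 202 under these settings. Called lower at 1.5-fold were 2 in macrophage-like and 3 in dendritic-like barcodes, where Cybb joined in both and Cyba in the second. At that limit Ncf4 also joined the genes higher in neutrophil-like barcodes, with ratios of 1.57 and 1.57. Cyba joined those lower in lymphoid-like barcodes, by a factor of 2.41 and 1.96. Over all genes 163 were higher in neutrophil-like and 827 lower in lymphoid-like barcodes at 1.5-fold. For B-like over T-like and NK-like barcodes the count lower was 2 with at least 1000 UMIs and at 1.5-fold and 0 by the mean over barcodes, and the count higher was 1, Cybb, with at least 10 UMIs per gene. Over all genes the count lower was 317 and became 309, 561 and 301, and the count higher was 14 and became 142, under these settings. The mean over barcodes put 1 gene, Ncf1, higher in library 1 in melanoma-like barcodes. Ncf4 in lymphoid-like barcodes lost its call with at least 1000 UMIs, with mixed barcodes kept and with Leiden clusters, which also dropped it in dendritic-like barcodes. The cause was not tested. Neutrophil-like, B-like and dendritic-like classes hold the fewest UMIs, so their ratios have the widest intervals.

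Over all genes, the count higher in neutrophil-like barcodes, 93, was 33 with at least 1000 UMIs, 253 with at least 10 UMIs per gene and 163 at 1.5-fold. The count lower, 550, was 215, 1615 and 905 under the same settings, 924 with Leiden clusters and 279 with a lower side under 3 UMIs taken as 3. In macrophage-like barcodes 424 higher became 1029 with at least 10 UMIs per gene and 901 at 1.5-fold, and 246 lower became 432 and 561. In dendritic-like barcodes 85 higher became 452 and 202 under those settings, 53 with at least 1000 UMIs and 136 with Leiden clusters, and 318 lower became 659 and 495. In lymphoid-like barcodes 386 higher became 1271 and 750, and 616 lower became 1208 with at least 10 UMIs. For B-like over T-like and NK-like barcodes 14 higher became 142 and 53 under those settings and 22 with no filter, and 317 lower became 1445, 561 and, with a lower side under 3 UMIs taken as 3, 42.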
